A study of Equus asinus with 12 samples.

Results

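The HOX genes are homeobox genes that lie in 4 clusters, HOXA to HOXD, and specify position along the body axis. The genes described here are all those listed in the deposited table under a single HOX name, taken whatever their level, with the locus of highest mean used where a name occurs more than once. That gave 27 genes from 28 of the 27084 loci, 9 in HOXA, 5 in HOXB, 9 in HOXC and 4 in HOXD. They were measured by RNA-seq in skeletal muscle of donkeys (Equus asinus) of the Dezhou breed, in strains named Wutou and Sanfen. Gluteal muscle, which extends the hip, and longissimus dorsi, which runs along the spine, were each sampled in both strains at 24 months of age, which gives 4 groups of 3 libraries with no treatment or altered allele. The design text speaks of 6 donkeys, and which donkey gave which of the 12 libraries is not labelled. The p-values therefore rest on library-to-library spread, part of which may be technical.

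Within a cluster, HOX genes are numbered from 1 to 13 by paralogue group, and genes with the same number in different clusters are related copies. Low numbers are switched on first in the embryo and act toward the head, and high numbers are switched on later and act toward the tail and along the limbs, an order known as collinearity. In vertebrates, groups 5 to 9 mark the trunk, group 10 the lumbar region, group 11 the sacral region and both limbs, and group 13 the end of the axis and the digits. In adult tissues, muscle-resident connective tissue cells and muscle stem cells keep part of this embryonic pattern. Longissimus muscle arises from the dorsal, epaxial part of the somites along the back, whereas gluteal muscle is a hindlimb girdle muscle.

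The libraries are of striated muscle. ACTA1, the skeletal actin, measured 8714 to 11832 FPKM (fragments per kilobase scaled to library depth) in the gluteal libraries and 9040 to 13587 in the longissimus libraries, and CKM, the muscle creatine kinase, 5666 to 8562 and 6063 to 10174. TTN, also taken as a muscle fibre marker, measured 2472 to 2776 and 2149 to 2829 FPKM. The marker TNNT3 was by contrast only at 0 to 5.43 FPKM in gluteal and 0 to 1.24 in longissimus libraries, and the marker MYH7 was not listed. Summed FPKM over all loci was 214564 to 319767 per library, and read numbers are unknown, so the counting error could not be estimated. Sanfen gluteal replicate 1 stood apart from the other gluteal libraries for tendon transcripts and for the muscle fibre marker MB. COMP, a cartilage and tendon matrix protein, measured 12.02 FPKM there and 0.0196 to 0.806 in the other gluteal libraries, and MB, myoglobin, measured 9594 FPKM there and 2677 to 4480 in the other gluteal libraries. In Sanfen longissimus muscle COMP was 0.191 to 3.54 FPKM. FMOD, another tendon marker, measured 9.18 FPKM in Sanfen gluteal replicate 1 and 1.63 to 3.78 in the other gluteal libraries. It measured 7.34 to 17.7 FPKM in Sanfen longissimus libraries. In these bulk samples, fewer cells of a type and less RNA per cell cannot be told apart.

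HOX transcripts were scarce and very unequal. HOXD8, of the central part of the HOXD cluster, was the most abundant with a mean of 6.75 FPKM over the 12 libraries, followed by HOXA9 (2.23), HOXC10 (1.86), HOXD1 (1.61) and HOXC9 (1.04). The other 22 had means under 1 FPKM, from 0.686 for HOXA10 down to 0.00630 for HOXC13. Neighbours in this order, such as HOXC10 and HOXD1, overlapped from library to library. Of the 27 genes, 19 were above 0 in all 12 libraries, and 14 to 23 genes per library reached 0.1 FPKM.

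**Figure D1:**
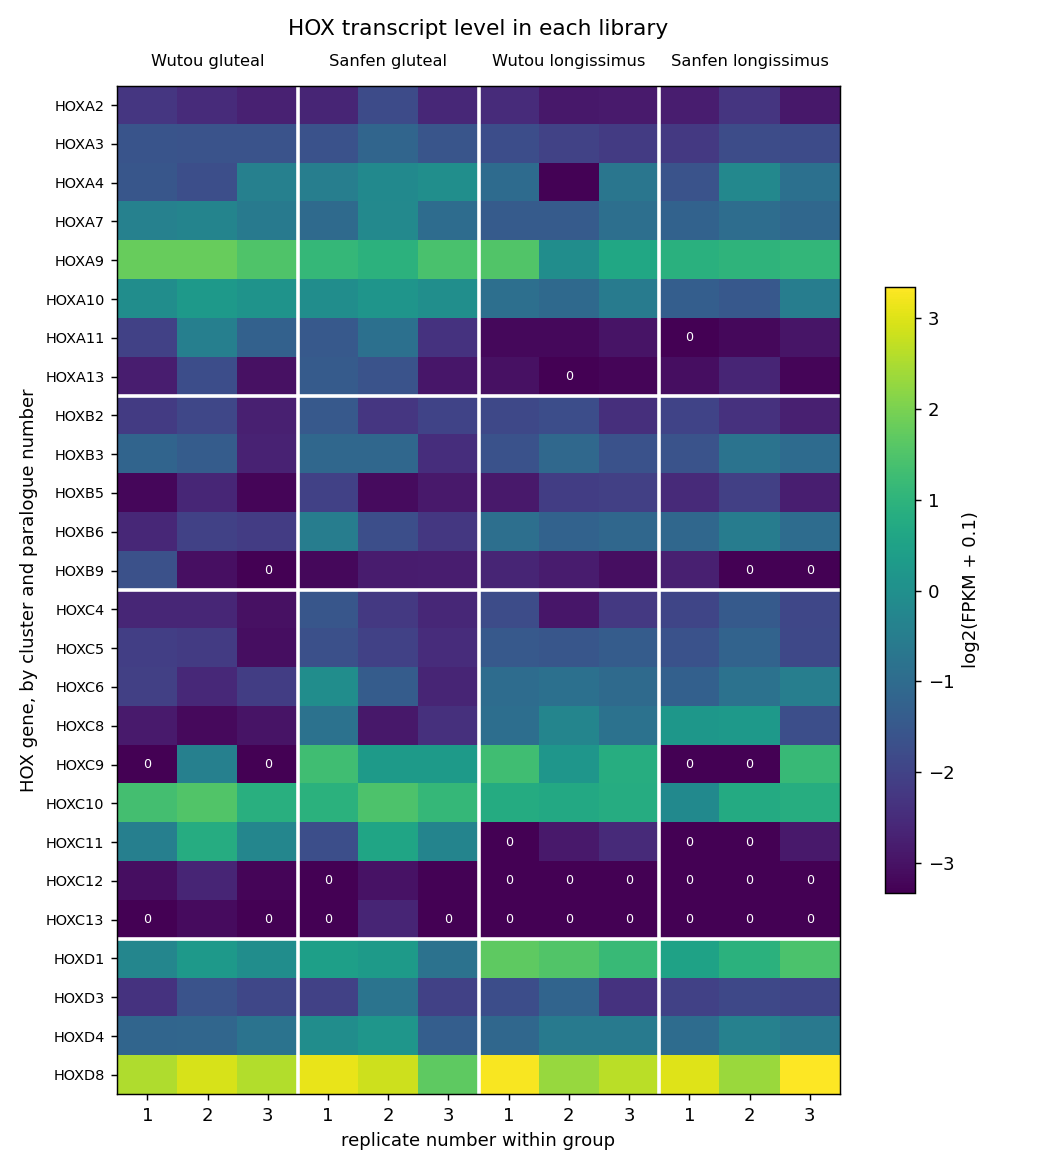
Level of 26 HOX genes (rows, by cluster and paralogue number) in the 12 libraries (columns, by group), as log2(FPKM + 0.1) on the color scale, with exact zeros marked 0. HOXD8 is the brightest row in every library, with a mean of 6.75 FPKM, and HOXC12 and HOXC13 are listed at 0 in all 6 longissimus libraries.

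Gluteal muscle was compared with longissimus muscle to ask whether the HOX transcripts of a hip and a back muscle follow the body axis in adult animals. HOXA10, HOXC10, HOXA11 and HOXC11 lay higher in gluteal muscle in both strains, although none passed the test. The merged locus of HOXD9 and HOXD10, which is not among the 27 genes, lay on the other side, at 0.621 ± 0.277 FPKM in gluteal and 0.811 ± 0.236 in longissimus muscle (SD, n = 6 each). HOXD1, HOXC5, HOXC8 and HOXB6 had lower means in gluteal muscle. In 5 of the 27 genes (18.5%), HOXA3, HOXA10, HOXA11, HOXC10 and HOXC11, all 6 gluteal libraries were above all 6 longissimus libraries, where 0.295% of all 27084 loci were so. In 1 gene, HOXD1, all gluteal libraries were below all longissimus libraries, as in 0.0406% of all loci. When the libraries were rescaled by the median of their ratios, HOXA10, HOXA11 and HOXC11 stayed apart upward (3 genes, against 0.122% of loci), HOXA3 and HOXC10 overlapped, and HOXC5 joined HOXD1 downward (2 genes, against 0.0886% of loci).

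No HOX gene passed the test over all loci. The log2(FPKM + 1) values were tested with limma, adjusted by Benjamini-Hochberg over the 12408 loci with at least 1 FPKM in at least 3 libraries, of which 0% were called between the muscles averaged over strains. Only 5 HOX genes were among these loci, 0 were called, and HOXD1, HOXC10 and HOXA9 had an unadjusted p under 0.05, as did 6.56% of all tested loci. Without a filter, which takes in all 27 genes, 0 were called (0.00369% of loci were) and 12 (44.4%) had an unadjusted p under 0.05, 8 of them higher and 4 lower in gluteal muscle, against 5.80% of all loci. An exact two-sided permutation test gave p = 0.005, the smallest it can give, for the 6 genes whose muscles did not overlap. It covered the 400 assignments of libraries to muscles within strains. Muscles that do not overlap always give this smallest p, so for these genes it restates the separation and is not a separate result. That p was reached by 0.713% of all loci, and it was 0.702 after adjustment over all loci. The test treats the libraries of a strain as exchangeable and, like the main limma fit, does not use any pairing of muscles from the same donkey. Deviations of same-numbered libraries from their group means correlated weakly, at 0.110 to 0.246 in Sanfen and 0.0711 to 0.182 in Wutou. Those of differently numbered libraries correlated at -0.149 to -0.000829 in Sanfen and -0.169 to 0.0126 in Wutou.

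**Figure D2:**
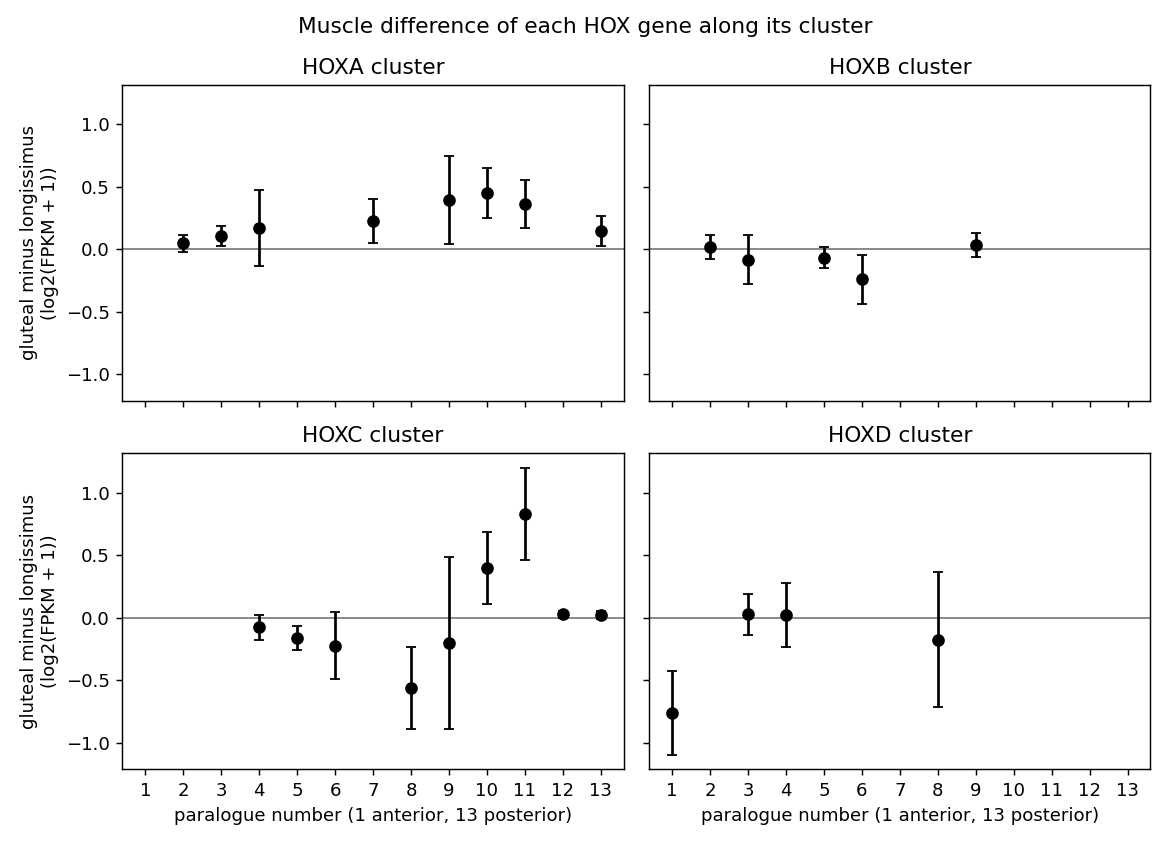
Difference between gluteal and longissimus muscle for 26 HOX genes on the log2(FPKM + 1) scale (vertical axis) by paralogue number (horizontal axis), 1 panel per cluster, with points at the limma estimate averaged over strains and bars at its 95% confidence interval from the fit without a filter. In HOXC the estimates lie below 0 up to HOXC9 and above 0 from HOXC10 on, and in HOXA all 8 drawn lie above 0.

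The posterior genes of groups 11 to 13 were apart in sum, mostly through HOXC11 and HOXA11. The summed FPKM of the 5 genes of groups 11 to 13 was 0.745 to 2.53 in the gluteal libraries and 0.0195 to 0.107 in the longissimus libraries. HOXC11 and HOXA11, which were apart on their own, averaged 0.882 and 0.316 FPKM in gluteal muscle, so the sum is not a separate result. HOXA13 (0.133), HOXC12 (0.0188) and HOXC13 (0.0126) each overlapped between the muscles over both strains. The sum over the 5 genes of groups 9 and 10 was 5.47 to 7.92 in gluteal and 2.93 to 7.30 in longissimus libraries, which overlap.

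HOXC11, a group 11 gene active in the embryonic hindlimb and lower spine, stood furthest apart between the muscles. It measured 0.630, 1.63 and 0.730 FPKM in Wutou gluteal and 0.205, 1.39 and 0.701 in Sanfen gluteal muscle. In longissimus muscle it measured 0, 0.0383 and 0.0719 FPKM in Wutou and 0, 0 and 0.0372 in Sanfen. The gluteal libraries were all higher, the lowest of them Sanfen gluteal replicate 1, and the log2 difference without a filter was 0.83 (SE 0.17, limma adjusted p = 0.489). These values belong to an assembled locus (MSTRG.248) that carries the gene's name. The locus with the RefSeq HOXC11 transcript (MSTRG.247), lower in level, measured 0.0756 to 0.735 FPKM in gluteal libraries, and in longissimus libraries it was listed at 0 in 5 and at 0.0457 in 1.

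HOXA11, the HOXA gene of the same group, which shapes the middle segment of the limbs, had the same order. It measured 0.144, 0.627 and 0.319 FPKM in Wutou gluteal and 0.265, 0.445 and 0.0982 in Sanfen gluteal muscle, against 0.00976, 0.0101 and 0.0285 in Wutou and 0, 0.0104 and 0.0295 in Sanfen longissimus muscle. The groups did not overlap in either strain, and the log2 difference was 0.36 (SE 0.085, adjusted p = 0.650 in limma without a filter). On the log2(FPKM + 0.1) scale, which draws low values together less, the differences were 2.81 (SE 0.39, adjusted p = 0.128) for HOXC11 and 1.73 (SE 0.30, adjusted p = 0.364) for HOXA11, again without a filter. HOXA11 and HOXC11 were chosen for this description after their values were seen, like the other genes under 1 FPKM that are given library by library.

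Group 10 genes, which pattern the lumbar spine and the upper hindlimb, were present in both muscles. HOXC10 measured 2.43, 2.78 and 1.75 FPKM in Wutou gluteal and 1.82, 2.67 and 2.07 in Sanfen gluteal muscle, and 1.62, 1.51 and 1.63 in Wutou and 0.798, 1.59 and 1.67 in Sanfen longissimus muscle. The lowest gluteal library lay just above the highest longissimus library, and the log2 difference was 0.40 (SE 0.13, limma adjusted p = 0.745). HOXA10 averaged 0.981 ± 0.130 FPKM in Wutou gluteal and 0.911 ± 0.0799 in Sanfen gluteal muscle, against 0.467 ± 0.0986 in Wutou and 0.385 ± 0.191 in Sanfen longissimus muscle (SD, n = 3 each). The ratio of its gluteal to its longissimus mean was 2.22 (log2 difference 0.45, SE 0.089, adjusted p = 0.489 in limma without a filter).

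Of the last members, HOXA13, a digit and urogenital tract gene, was low everywhere. It reached 0.0229 to 0.200 FPKM in Wutou and 0.0327 to 0.275 in Sanfen gluteal libraries, against 0 to 0.0223 in Wutou and 0.00657 to 0.0611 in Sanfen longissimus libraries, so the muscles overlapped in Sanfen but not in Wutou. HOXC12 was listed above 0 in 5 of the 6 gluteal libraries, at most 0.0605 FPKM, and HOXC13, which acts in hair and nails, in 2 of them, at most 0.0618. Both were listed at 0 in all 6 longissimus libraries, and such low values rest on few reads.

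**Figure D3:**
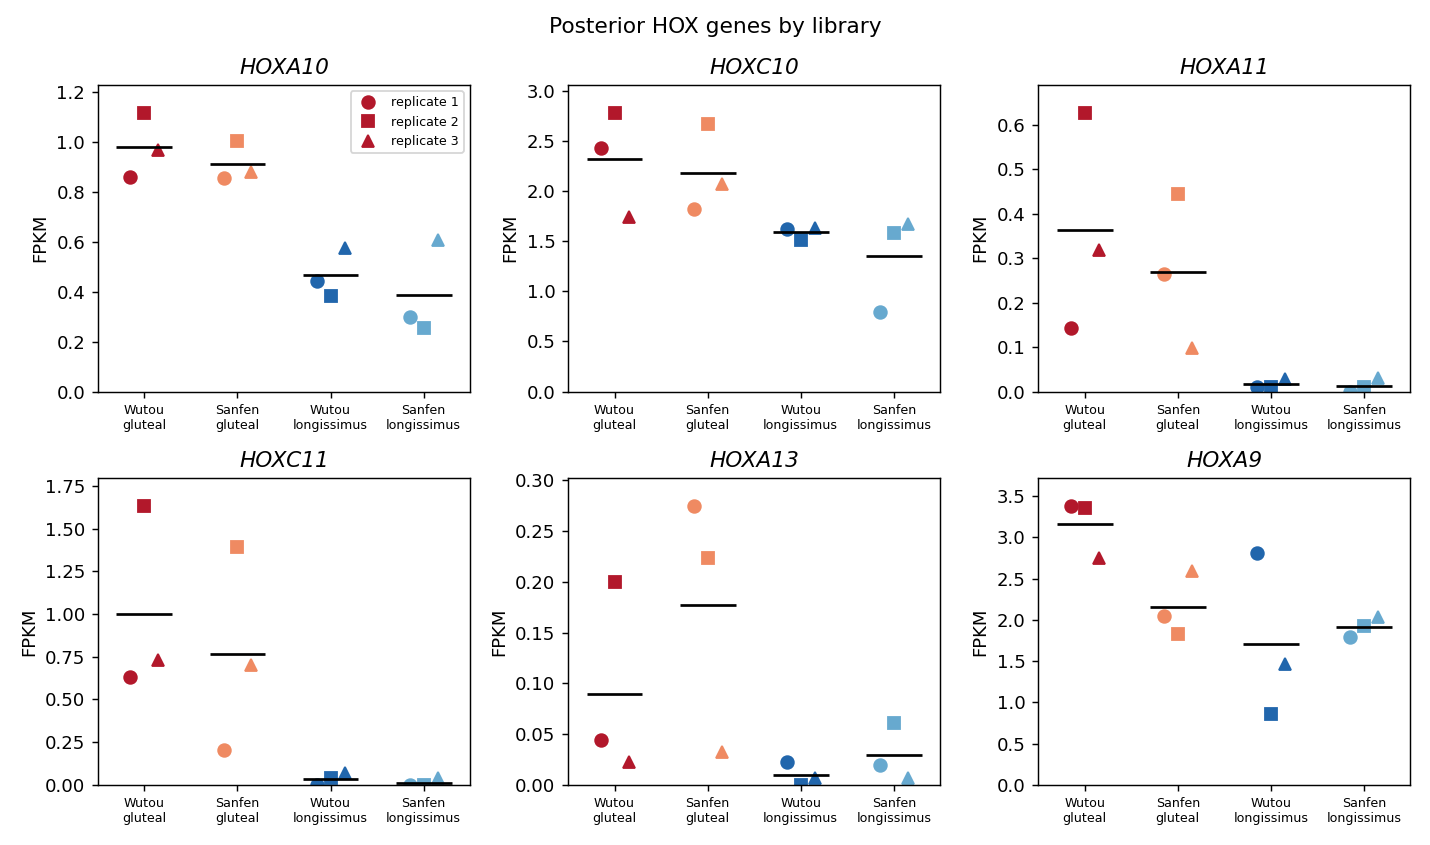
FPKM (vertical axis, from 0) of HOXA10, HOXC10, HOXA11, HOXC11, HOXA13 and HOXA9 in each library by group (horizontal axis), with 1 symbol per replicate number and a bar at the group mean. HOXC11 lies at 0.205 to 1.63 in gluteal libraries and at 0 to 0.0719 in longissimus libraries, whereas HOXA9 overlaps.

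In HOXC, the estimates of the 5 genes of groups 4 to 9 lay below 0, but only those of HOXC5 and HOXC8 had an unadjusted p under 0.05. HOXC8, a gene of the thoracic trunk, measured 0.0387, 0.0133 and 0.0273 FPKM in Wutou gluteal and 0.468, 0.0347 and 0.0902 in Sanfen gluteal muscle. In longissimus muscle it measured 0.434, 0.723 and 0.470 FPKM in Wutou and 1.05, 1.09 and 0.203 in Sanfen. All gluteal libraries but Sanfen replicate 1 were below all longissimus libraries, and the log2 difference was -0.56 (SE 0.15, adjusted p = 0.764 in limma without a filter). HOXC5 averaged 0.0924 ± 0.0643 and 0.144 ± 0.0636 FPKM in Wutou and Sanfen gluteal muscle, against 0.262 ± 0.0198 and 0.244 ± 0.0843 in Wutou and Sanfen longissimus muscle (SD, n = 3 each). HOXC6 ranged from 0.0606 to 0.858 FPKM in gluteal and from 0.312 to 0.622 in longissimus libraries, and HOXC4 from 0.0228 to 0.242 and from 0.0333 to 0.270.

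In HOXB the trunk gene HOXB6 followed HOXC8. It measured 0.0682, 0.146 and 0.126 FPKM in Wutou gluteal and 0.603, 0.201 and 0.111 in Sanfen gluteal muscle, against 0.437, 0.327 and 0.368 in Wutou and 0.365, 0.591 and 0.414 in Sanfen longissimus muscle. Sanfen gluteal replicate 1 lay above all the longissimus libraries, and the other gluteal libraries lay below them. HOXB5 averaged 0.0458 ± 0.0534 FPKM in gluteal and 0.0946 ± 0.0478 in longissimus muscle, and HOXB3 0.250 ± 0.144 and 0.319 ± 0.113 (SD, n = 6 each), with overlapping muscles.

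HOXD1, at the anterior end of the HOXD cluster, had the smallest p of the 5 tested genes. It measured 0.735, 1.11 and 0.858 FPKM in Wutou gluteal and 1.25, 1.14 and 0.468 in Sanfen gluteal muscle, against 3.09, 2.77 and 2.13 in Wutou and 1.32, 1.82 and 2.66 in Sanfen longissimus muscle. The muscles did not overlap in either strain, although Sanfen gluteal replicate 1 and Sanfen longissimus replicate 1 lay close together. The log2 difference averaged over strains was -0.76 (95% confidence interval -1.09 to -0.44, limma adjusted p = 0.413), with the gluteal mean 0.404 times the longissimus mean.

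**Figure D4:**
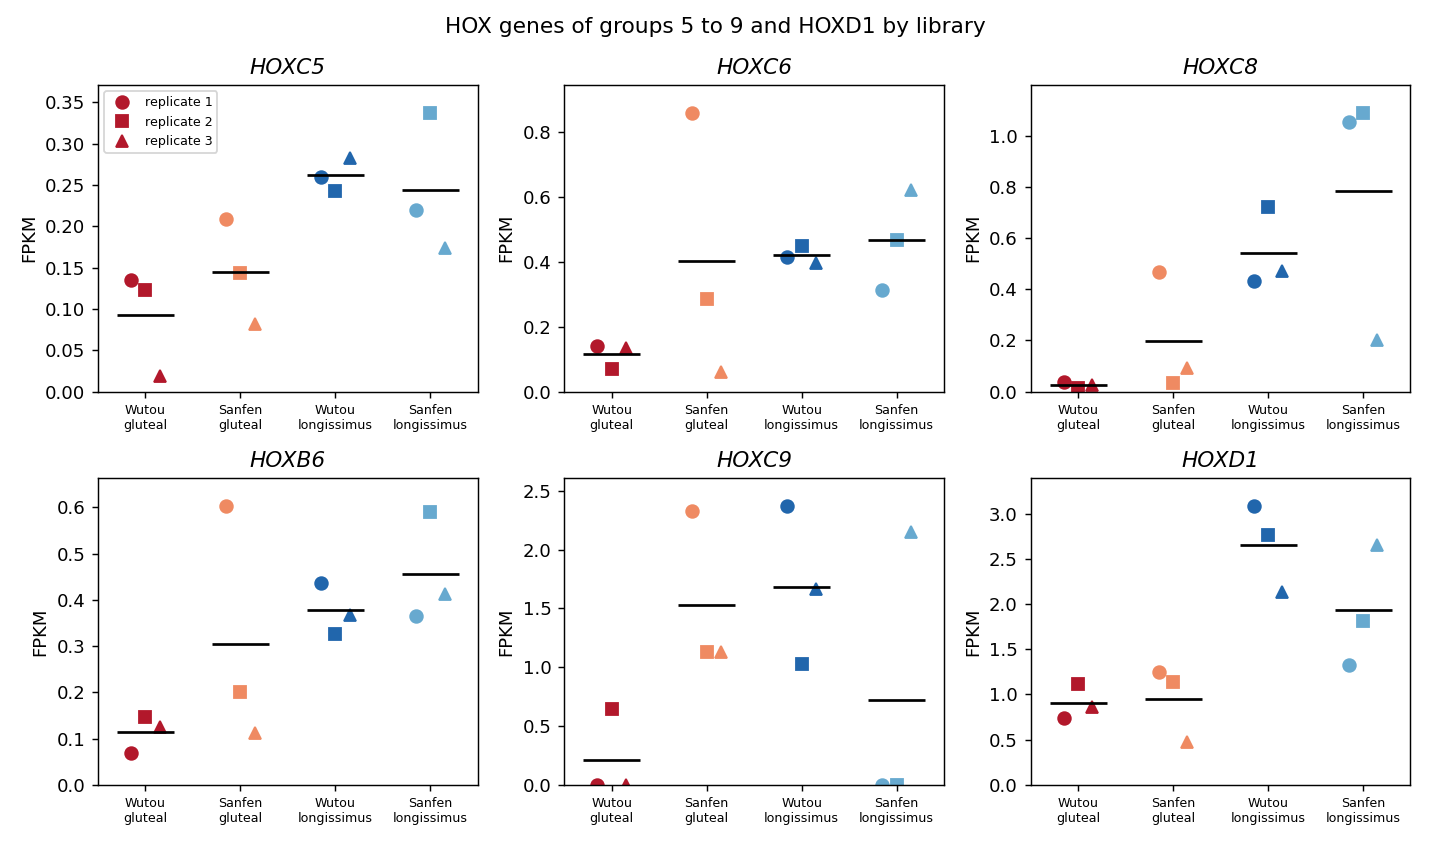
FPKM (vertical axis, from 0) of HOXC5, HOXC6, HOXC8, HOXB6, HOXC9 and HOXD1 in each library by group (horizontal axis), with 1 symbol per replicate number and a bar at the group mean. Sanfen gluteal replicate 1 lies at 0.468 for HOXC8, 0.858 for HOXC6 and 0.603 for HOXB6, above the other 5 gluteal libraries.

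Sanfen gluteal replicate 1 had trunk genes at longissimus levels and posterior genes of mixed rank. Its HOXC8, HOXC6 and HOXB6 were in or above the longissimus range. Its HOXA11 (0.265 FPKM) and HOXA13 (0.275) were in or above the range of the other gluteal libraries. However, its HOXC11 (0.205) and HOXA10 (0.854) were the lowest among the gluteal libraries, and its HOXC12 was listed at 0. Its summed FPKM over groups 11 to 13 (0.745) was also the lowest gluteal sum. Without this library, HOXB6, HOXC5, HOXC6, HOXC8 and HOXD1 were lower in every gluteal than in every longissimus library, which is 5 genes instead of 1, against 0.137% of all loci. The count of genes apart upward was then 6, with HOXC12 added, against 0.447% of all loci. This library was left out, as was each of the others in turn, after its values had been seen. Leaving out Sanfen longissimus replicate 3, which had the lowest longissimus HOXC8, added HOXC5 to the genes apart downward (2 genes, against 0.0702% of loci).

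Of the 11 limb and regional factors in the table, Sanfen gluteal replicate 1 lay outside the other gluteal libraries in 4, above them for ZIC1 and below them for TBX1, TBX4 and SHOX2, and within their range in 7, such as TBX15 and TBX18. TBX1, a T-box gene best known from the pharyngeal arches, measured 10.4, 4.40 and 7.03 FPKM in Wutou gluteal and 4.04 and 12.7 in Sanfen gluteal replicates 2 and 3, but 0.669 in Sanfen gluteal replicate 1, where longissimus libraries had 0.656 to 2.84. ZIC1, expressed dorsally in the somites of the mouse (the more abundant of its loci), measured 2.79 FPKM in Sanfen gluteal replicate 1, 0 to 0.991 in the other gluteal and 0.955 to 2.29 in the longissimus libraries. The log2 difference between gluteal and longissimus muscle at this locus was -0.37 in Sanfen and -0.87 in Wutou. At the other tested ZIC1 locus, whose library values are not given here, it was -1.29 in Sanfen and -0.50 in Wutou. PITX1, a homeobox gene that specifies the hindlimb, was listed at 1.76, 0 and 1.61 FPKM in Wutou gluteal and 0, 0 and 25.3 in Sanfen gluteal muscle, and at 0 to 0.0583 in longissimus libraries. It was thus listed at 0 in 3 of the 6 gluteal libraries. TBX4, the hindlimb T-box gene, was listed at 0.0276 to 0.162 FPKM in gluteal libraries other than Sanfen replicate 1, which was at 0, and above 0 in 1 longissimus library, at 0.0262. The part of its tendon transcripts in these values was not tested.

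**Figure D5:**
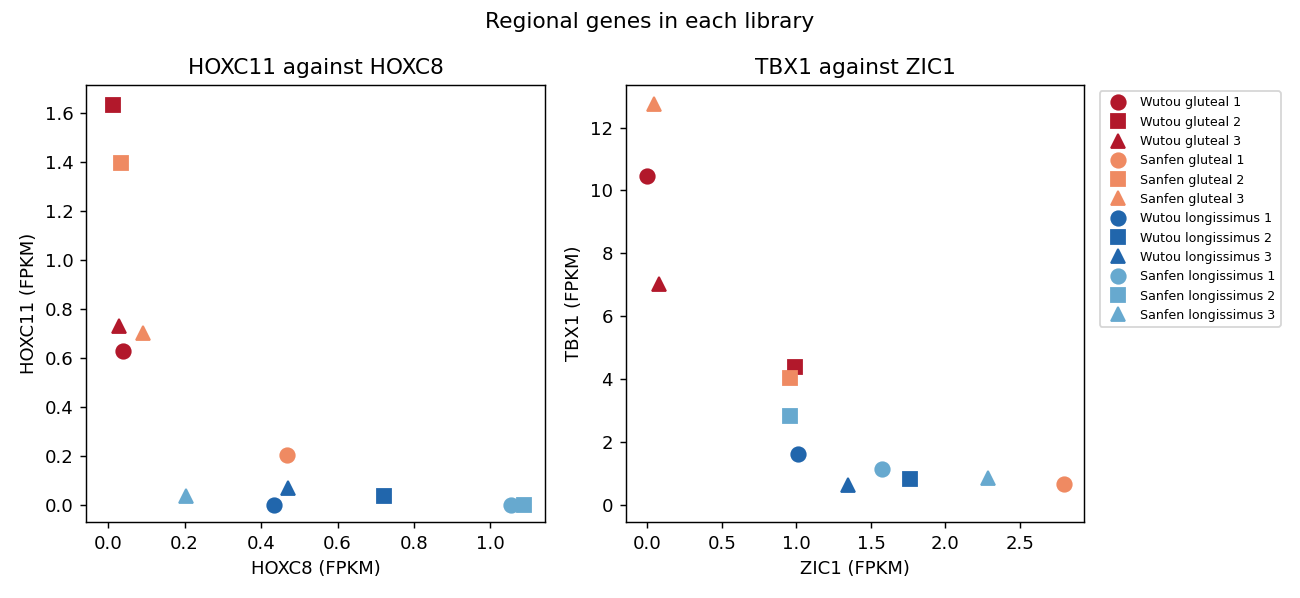
FPKM of HOXC11 against HOXC8 (left) and of TBX1 against ZIC1 (right) in each of the 12 libraries, with color for the group and symbol for the replicate number. Sanfen gluteal replicate 1 lies at 0.468 for HOXC8, within the longissimus range, and at 2.79 for ZIC1, above every longissimus library. For HOXC11 it lies at 0.205, below the other gluteal and above the longissimus libraries.

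In HOXA the anterior members lay on the same side as the posterior ones. All 9 HOXA genes had a higher mean log2 level in gluteal muscle, as did 64.4% of all loci, and all 9 kept that direction after median-of-ratios rescaling, where 51.2% of all loci had it. Without a filter, 6 of the 9 had an unadjusted p under 0.05, against 5.80% of all loci in either direction. HOXA3, which patterns the pharyngeal arches, measured 0.222 to 0.348 FPKM in gluteal and 0.114 to 0.199 in longissimus libraries. HOXA7, a trunk gene, averaged 0.645 ± 0.0721 and 0.527 ± 0.218 FPKM in Wutou and Sanfen gluteal muscle, against 0.331 ± 0.0954 and 0.370 ± 0.0459 in Wutou and Sanfen longissimus muscle (SD, n = 3 each). HOXA2 and HOXA4 overlapped between the muscles, with log2 differences of 0.048 and 0.17.

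HOXA9, a gene of the lower trunk that also acts in blood progenitors, had its larger difference in Wutou. It measured 3.38, 3.35 and 2.75 FPKM in Wutou gluteal and 2.81, 0.853 and 1.46 in Wutou longissimus muscle. In Sanfen it measured 2.04, 1.83 and 2.59 FPKM in gluteal and 1.79, 1.92 and 2.04 in longissimus muscle. The muscles overlapped in both strains, the log2 difference was 0.68 (adjusted p = 0.870) in Wutou and 0.11 (adjusted p = 1) in Sanfen, and the difference between these did not pass (0.57, SE 0.31, limma adjusted p = 0.9998).

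HOXC9, a thoracic gene, held exact zeros beside levels above 1 FPKM. In gluteal muscle it was listed at 0, 0.644 and 0 FPKM in Wutou donkeys and at 2.33, 1.13 and 1.13 in Sanfen donkeys. The longissimus values were 2.37, 1.03 and 1.66 FPKM in Wutou donkeys and 0, 0 and 2.15 in Sanfen donkeys. The zeros fell in opposite muscles of the strains, and the difference between the muscle effects was -1.91 on the log2 scale (SE 0.59, limma unadjusted p = 0.00721, adjusted p = 0.9998). HOXC8 and HOXC10, its neighbours on the chromosome, were above 0 in every library. An exact zero can be a failed estimate for a locus whose reads are shared with an overlapping one. In the current RefSeq annotation, HOXC4 transcripts span HOXC9, HOXC8, HOXC6 and HOXC5. Whether reads were divided between these loci, and whether that gave the HOXC9 zeros, was not tested.

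The most abundant HOX gene showed no difference that these libraries could resolve. HOXD8 measured 5.69, 7.53 and 5.87 FPKM in Wutou gluteal and 8.504, 7.04 and 3.10 in Sanfen gluteal muscle, against 9.50, 4.83 and 6.11 in Wutou and 7.93, 4.96 and 9.99 in Sanfen longissimus muscle. Its log2 difference was -0.18 (95% confidence interval -0.69 to 0.34, limma adjusted p = 0.924), and without Sanfen gluteal replicate 3 it was 0.0070. HOXD4 averaged 0.562 ± 0.304 FPKM in gluteal and 0.519 ± 0.110 in longissimus muscle, and HOXD3 0.212 ± 0.143 and 0.185 ± 0.0828 (SD, n = 6 each). HOXB2 and HOXB9 overlapped as well, with log2 differences of 0.022 and 0.034.

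Taken strain by strain, the muscle comparison called 0 HOX genes in each. In Wutou, 8 genes were apart upward (7.23% of all loci were) and 6 downward (3.18% of all loci), among them HOXC5, HOXC6, HOXC8, HOXC9 and HOXB6. In Sanfen, 5 were apart upward (5.62% of all loci) and HOXD1 alone downward (1.61% of all loci). Limma called 0% of loci in Wutou and 0.0242% in Sanfen, or 0% and 0.0185% without a filter. An unadjusted p under 0.05 without a filter was found for 11 of the 27 genes in Wutou (4.83% of all loci) and 8 in Sanfen (4.21% of all loci). Of the interaction terms 0 were called (0.00806% of tested loci were, 0.00738% without a filter), and only that of HOXC9 had an unadjusted p under 0.05 (2.96% of all loci without a filter).

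No HOX gene was called between the strains. Between Wutou and Sanfen longissimus muscle limma called 0 of the 5 tested genes (0.0161% of tested loci, 0.0148% without a filter), 0 of 27 had an unadjusted p under 0.05 without a filter (4.84% of all loci), and in 0 genes were the libraries apart upward (2.99% of all loci) or downward (6.73% of all loci). In gluteal muscle 0 of the 5 were called (0.00806% of tested loci) and 1 of 27, HOXC9, had an unadjusted p under 0.05 (5.31% of all loci). There HOXA9 was higher in every Wutou than in every Sanfen library (2.18% of all loci), and HOXC4 and HOXC9 were lower (7.20% of all loci).

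Some HOX genes were listed under other names and are not counted among the 27. The merged locus of HOXA5 and HOXA6 averaged 0.596 ± 0.198 FPKM in gluteal and 0.306 ± 0.170 in longissimus muscle, close to HOXA7 in its difference. It was at 0.597 to 0.806 FPKM in Sanfen gluteal and 0.249 to 0.432 in Sanfen longissimus libraries, which do not overlap. In Wutou it was at 0.238 to 0.628 FPKM in gluteal and 0.114 to 0.522 in longissimus libraries. The merged locus of HOXD9 and HOXD10 was at 0.463 to 0.581 FPKM in Wutou gluteal and 0.751 to 0.941 in Wutou longissimus libraries, which do not overlap, and at 0.358 to 1.15 in Sanfen gluteal and 0.506 to 1.16 in Sanfen longissimus libraries. A locus that RefSeq now names HOXB7 averaged 0.121 ± 0.0676 FPKM in gluteal and 0.206 ± 0.125 in longissimus muscle (SD, n = 6 each). All 3 loci overlapped between the muscles over both strains. LOC106828112, a long non-coding RNA gene that lies in the HOXC cluster in the RefSeq assembly, varied from 0.0481 to 8.59 FPKM with no order by muscle.

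Of genes that work with or on the HOX genes, 0 were called between the muscles, and 0% of all 12408 tested loci were. The lists are textbook ones, and the median of all tested loci was 0.07. HOX cofactors, homeodomain partners that sharpen HOX binding to DNA, had 7 of 9 genes in the table and 4 tested, of which 0 were called (median log2 difference -0.08). PKNOX1 averaged 1.40 FPKM in gluteal and 1.53 in longissimus muscle, and PKNOX2 1.13 and 1.27. Polycomb genes, which keep HOX clusters silent, had 17 tested, 0 called and a median of 0.05. RBBP7 averaged 2.14 and 1.67 FPKM in gluteal and longissimus muscle, JARID2 2.44 and 1.91, and BMI1 2.30 and 1.89.

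Trithorax-type activators, which keep HOX genes on, had 12 tested, 0 called, 9 higher and 3 lower in gluteal muscle (median 0.12). ASH1L, a histone methyltransferase, averaged 8.30 FPKM in gluteal and 6.31 in longissimus muscle (limma adjusted p = 0.745), KMT2C 4.73 and 3.81, and ASH2L 1.095 and 0.818. Of the axial patterning signals 5 were tested, 0 were called and 4 lay lower (median -0.06). RXRA, a retinoid receptor, averaged 5.28 and 7.22 FPKM (adjusted p = 0.745), RARG 2.001 and 2.16, and RXRB 3.39 and 3.55, while CDX1 and CDX4, embryonic activators of posterior HOX genes, were at or under 0.0357 FPKM. Limb and regional factors had 6 tested and 0 called, 5 higher and 1 lower (median 0.38), among them TBX1 (adjusted p = 0.745), ZIC1 (adjusted p = 0.760 for the more abundant locus and 0.745 for the other, both lower) and PITX1 (adjusted p = 0.774). Genes flanking the clusters had 6 tested and 0 called (median 0.10), with ATF2 at 3.51 and 3.10 FPKM, HIBADH at 12.98 and 11.4 and HNRNPA1 at 3.10 and 2.72 in gluteal and longissimus muscle.

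Of the 36 marker genes of muscle and other cell types in the table, 0 of those tested were called between the muscles (0% of all tested loci were), and the summed levels of each list overlapped. FABP4, a fatty acid carrier of fat cells and capillaries, was the 1 marker of 36 whose muscles did not overlap, where 0.295% of all loci were apart upward and 0.0406% downward. It measured 5.01 to 6.89 FPKM in gluteal and 3.56 to 4.91 in longissimus libraries (limma unadjusted p = 0.0125, adjusted p = 0.745). CNN1, a smooth muscle calponin, measured 4.31 to 13.5 FPKM in gluteal and 2.57 to 8.77 in longissimus libraries (unadjusted p = 0.0445, adjusted p = 0.748). The summed FPKM of the fibroblast list (5 of 6 genes in the table) was 78.4 to 143 in Wutou gluteal, 93.2 to 119 in Sanfen gluteal, 86.7 to 118 in Wutou longissimus and 76.0 to 165 in Sanfen longissimus libraries. That of the satellite cell list (3 of 4 genes) was 6.88 to 9.96, 6.69 to 9.09, 7.57 to 10.3 and 4.38 to 10.5 in the same order. The tendon list (4 of 5 genes) gave 1.85 to 2.63, 3.79 to 23.3, 1.12 to 2.11 and 7.66 to 22.4, the endothelial list 38.8 to 72.7, 52.8 to 73.4, 40.005 to 52.8 and 41.0 to 57.8, and the smooth muscle list 29.0 to 49.5, 28.8 to 71.9, 30.1 to 38.8 and 26.2 to 43.7. The adipocyte list gave 8.79 to 9.19, 7.27 to 9.40, 6.07 to 9.72 and 8.33 to 13.2, the immune list 0.977 to 3.25, 1.33 to 4.14, 1.89 to 4.13 and 2.91 to 4.43, and the nerve list 1.23 to 2.16, 2.03 to 8.84, 1.78 to 4.21 and 2.55 to 4.20. By gene, 5 of 5 endothelial, 3 of 3 smooth muscle and 3 of 3 satellite cell markers tested had a higher estimate in gluteal muscle. Their median log2 differences were 0.30, 0.27 and 0.14, and that of the satellite cell marker CDH15 was only 0.0039. So did 2 of 5 fibroblast (median -0.03), 2 of 5 muscle fibre, 1 of 3 adipocyte, 1 of 2 tendon, 0 of 1 immune and 1 of 1 nerve markers. Of all loci, 64.4% had a higher mean log2 level in gluteal muscle, and 51.2% after median-of-ratios rescaling. The part of these markers in the HOX differences was not tested.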

How the data were processed

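RNA-seq values were deposited by the authors as FPKM per locus, per the file headers, with no rescaling between samples recorded. Cutadapt, Bowtie2 and TopHat2 are named in the submitters' processing notes. No source used here names a genome build. The table has no read counts, so depth is unknown. RefSeq served only for gene names and neighbours.

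Differences in log2(FPKM + 1) were tested by limma 3.58.1 (R 4.3.3), with 1 model over the 4 groups (8 residual degrees of freedom), an intensity trend and Benjamini-Hochberg adjustment at 0.05 over loci with at least 1 FPKM in at least 3 libraries. The other 22 HOX genes were below this filter and were tested without it. The model was tested on simulated data. Exact permutation tests used Python 3.11.15 and scipy 1.17.1, with numpy 2.4.6, pandas 2.3.3 and matplotlib 3.10.9 for tables and figures. Alternatives were another pseudocount, filter and scaling, a replicate block and each library left out.

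Whether replicate numbers pair the muscles was checked: deviations of same-numbered libraries correlated at 0.246, 0.110 and 0.158 in Sanfen and at 0.182, 0.165 and 0.0711 in Wutou, so only the Sanfen numbers passed the limit of 0.1 for all pairs. This pairing comes from the values, not the labels.

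Genes with a group mean of at least 1 FPKM were given by library, and of the other lists the 3 with the smallest p, at the locus of highest mean. The genes and lists were chosen with earlier results of these data known. Some values are not reported here.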

Additional observations from a re-analysis of the deposited data

How the results depend on the processing

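Limma called 0 HOX genes in all 6 comparisons under the main setting and under the alternatives, leaving out each library included, except that the replicate block was fitted for the muscle comparisons and the interaction only, since it takes up the difference between strains. Fold changes of genes near 0 depend on the pseudocount, and depth is unknown.

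Counts of called loci moved as follows. A pseudocount of 0.1 gave 5 loci between the muscles in Sanfen, 6 between the strains in longissimus and 0 in gluteal muscle. No filter gave 1 locus between the muscles averaged over strains, 5 in Sanfen, 4 between the strains in longissimus muscle and 2 for the interaction. Median-of-ratios rescaling gave 2 between the muscles in Wutou, 0 between the strains in gluteal muscle and 2 for the interaction, and quantile normalization gave 0 and 2 for the last 2 of these. No filter with a pseudocount of 0.1, added after the data were seen, gave 3 averaged over strains, 6 in Sanfen, 6 in longissimus muscle, 2 in gluteal muscle and 6 for the interaction. The replicate block gave 1 locus between the muscles in Sanfen, against 3 without it, and changed no HOX call. Without each library in turn, counts ran from 0 to 4 averaged over strains, 0 to 5 in Sanfen, 0 to 2 in Wutou, 0 to 6 between the strains in longissimus, 0 to 3 in gluteal muscle and 1 to 5 for the interaction.

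The count of HOX genes apart upward was 5 to 6 without each library in turn and 3 with rescaling, and that of genes apart downward was 1 to 5 and 2, chosen after seeing the data. Genes at an unadjusted p under 0.05 without a filter numbered 10 to 14. HOXD1 between Wutou and Sanfen gluteal muscle, at -0.02 on the log2 scale, was 0.010 with a pseudocount of 0.1 (also with no filter), 0.050 with median-of-ratios rescaling, and 0.085 with quantile normalization.

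Differences within the library spread changed sign when 1 library was left out. For HOXD8 the log2 values ran from -0.30 to 0.0070 between the muscles averaged over strains, -0.55 to 0.064 in Sanfen, -0.24 to 0.19 in Wutou, -0.39 to 0.055 between the strains in longissimus, -0.26 to 0.35 in gluteal muscle and -0.11 to 0.50 for the interaction. For HOXC9 they ran from -0.34 to 0.075 between the muscles averaged over strains, and for HOXA9 from -0.45 to 0.072 between the strains in longissimus muscle. For HOXC10 they ran from -0.022 to 0.26 between the strains in longissimus, -0.045 to 0.19 in gluteal muscle and -0.21 to 0.077 for the interaction, and for HOXD1 from -0.21 to 0.098 between the strains in gluteal muscle.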
